A study of Mus musculus with 6 samples.

Results

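The genes described here are 8 markers of fetal and regenerating intestinal epithelium: Clu, Ly6a, Ly6e, Gja1, Anxa1, Il33, Spp1 and Ctgf. They were chosen by symbol from the 52249 genes of the count table. The symbols of 7 were found as written, and 1, Ctgf, was found under its current symbol Ccn2. All 8 passed the filter on low counts. They were picked with the comparison of the 2 groups in view, so their differences between groups are given as a description and without p-values.

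In the adult intestine, Lgr5-expressing crypt stem cells renew the epithelium under WNT signalling. After injury, and in organoids grown from fetal gut, epithelial cells switch to another programme in which clusterin (Clu), Sca-1 (Ly6a), annexin A1 (Anxa1), connexin 43 (Gja1) and osteopontin (Spp1) are switched on. The transcriptional coactivators YAP and TAZ, which act through TEAD factors and are held back by the Hippo kinases, are known drivers of this programme, and Ccn2 is their textbook target gene.

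Messenger RNA was measured by 3′ sequencing in mouse intestinal organoids, which are three-dimensional epithelial cultures, in 6 libraries. All carried a knockout of Apc, the WNT-restraining tumour suppressor. For the Apc-knockout group (3 libraries) the labels name no other alteration, and the IGF2BP3 OE group (3 libraries) also overexpressed IGF2BP3, an RNA-binding protein that stabilises target transcripts. The age and strain of the mice, the way Apc was removed, the IGF2BP3 construct and whether replicates are separate cultures are not given in the sources used here, so the spread between libraries may be technical.

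The libraries held 2180116 to 2519917 counts, and after scaling by TMM factors 1 count was worth 0.393 to 0.469 CPM, the unit used below for a level relative to library size. Counts from this protocol come from the 3′ end of each transcript, so CPM does not scale with transcript length. The library names place the Apc-knockout libraries in one series and the IGF2BP3 OE libraries in another, so library series and group cannot be told apart in any difference below. Igf2bp3 had 0 or 1 count in every library; a 3′ tag of the mouse gene does not check a construct that may lack that 3′ end. Mitochondrial genes took 11.6% to 11.96% of the counts in Apc-knockout and 6.77% to 7.19% in IGF2BP3 OE libraries. All 8 epithelial markers examined were counted, with a summed level of 4152 to 4389 CPM in Apc-knockout and 5403 to 6127 CPM in IGF2BP3 OE libraries. They did not rise together. In the edgeR test described below, Krt8, Krt18, Krt19 and Vil1 were higher in IGF2BP3 OE libraries. Cldn7 was lower (mean 203.3 CPM in Apc-knockout and 95.1 CPM in IGF2BP3 OE libraries), and Epcam, Cdh1 and Cdx2 did not pass. The 9 mesenchymal markers summed to at most 3.28 CPM, with Col1a2, Col3a1, Pdgfrb, Dcn and Lum at 0 in all libraries. The 4 endothelial markers summed to at most 0.461 CPM, with Cdh5 and Tek at 0. The 7 immune markers summed to 27.7 to 34.1 CPM in Apc-knockout and 46.1 to 55.5 CPM in IGF2BP3 OE libraries, nearly all of it Csf1r, while Cd3e, Cd79a, Adgre1 and Lyz2 were at 0. A fit without the mitochondrial genes kept the calls reported below. Its log2 fold changes (IGF2BP3 OE minus Apc-knockout) were 0.67 for Clu, 1.03 for Ly6a, 0.55 for Ly6e, -1.43 for Gja1 and -1.79 for Ccn2. Anxa1, Spp1 and Il33 again did not pass. The part of Csf1r, of the epithelial marker levels and of other changes that go with the mitochondrial share was not tested.

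The 8 markers did not move as a block. At an edgeR adjusted p below 0.05 (quasi-likelihood test over all 10687 genes kept, Benjamini-Hochberg adjustment), 3 were higher in IGF2BP3 OE libraries (Clu, Ly6a and Ly6e), 2 were lower (Gja1 and Ccn2), and 3 did not pass (Anxa1, Spp1 and Il33). Of all genes tested, 29.2% passed in either direction, 16.5% as higher and 12.7% as lower. The median log2 fold change (IGF2BP3 OE minus Apc-knockout) was -0.13 over the 8 markers and 0.04 over all genes. The balance of directions over all genes depended on the scaling. With DESeq2 size factors 1536 genes were higher and 1541 lower (median -0.003). Without mitochondrial genes 1504 were higher and 1603 lower (median -0.016), and with library totals 2035 and 1154 (median 0.09). The medians over the markers in these fits were -0.17, -0.18 and -0.08. Without its sign, the median change was 0.67 for the markers and 0.35 for all genes. Both groups were apart in CPM for the 5 markers that passed and overlapped for the other 3. Of all genes, 45.7% had groups without overlap. One library, IGF2BP3 OE replicate 1, stood apart from its group for several of the markers, and values without it are given beside the results it touches. In whole organoid cultures, fewer cells of a type and less RNA per cell cannot be told apart.

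**Figure D1:**
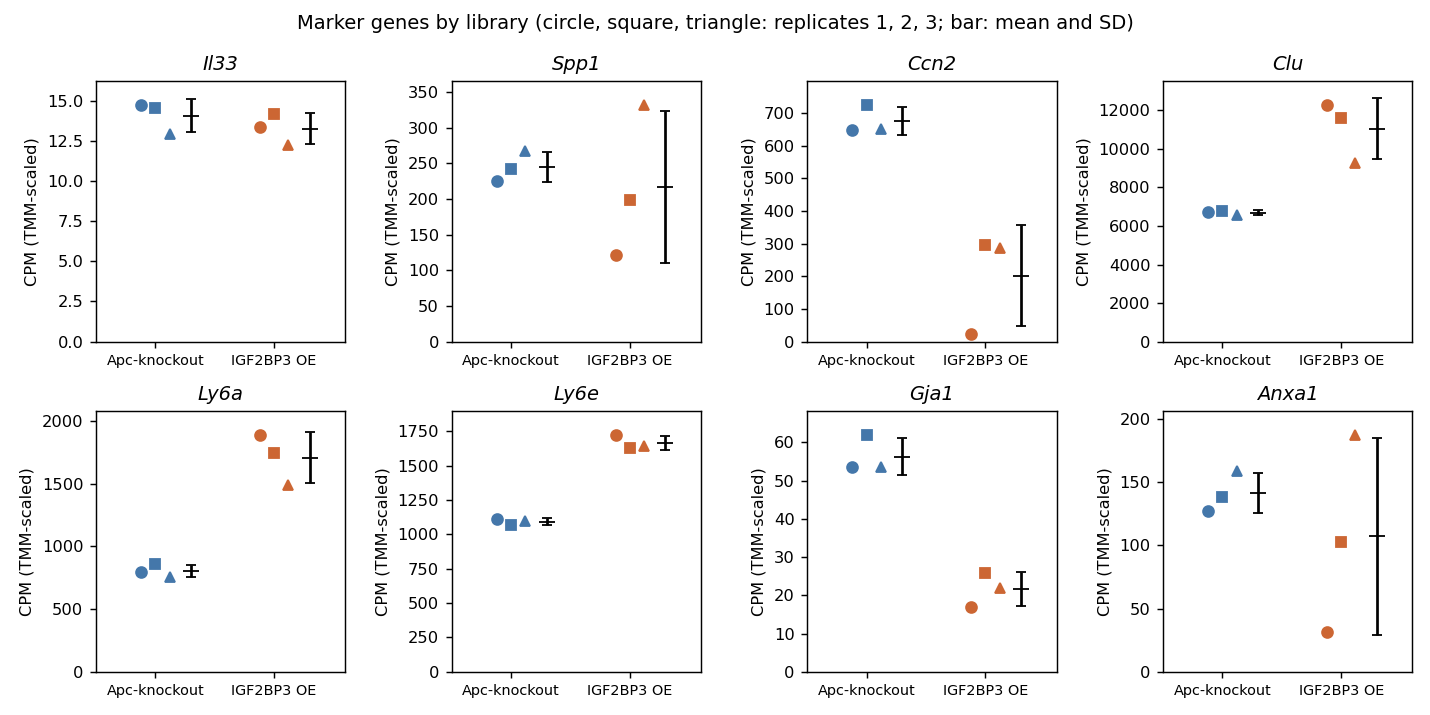
Level of each marker in each library, in TMM-scaled CPM (vertical axis, starting at 0), for the Apc-knockout (blue) and IGF2BP3 OE (orange) groups; symbols mark replicates 1 to 3 and the bar gives the mean and SD of 3 libraries. Clu, Ly6a and Ly6e lie above the Apc-knockout libraries, Gja1 and Ccn2 below them, and the orange points of Anxa1, Spp1 and Ccn2 are spread widely.

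Among the secreted proteins, clusterin, an extracellular chaperone whose transcript marks the revival stem cells of injured crypts, was the most abundant of the 8. Clu (ENSMUSG00000022037, chromosome 14, 65968483 to 65981547, plus strand, GRCm38 as for all positions here) was counted at 6733, 6776 and 6561 CPM in Apc-knockout replicates 1 to 3 and at 12290, 11600 and 9255 CPM in IGF2BP3 OE replicates 1 to 3. Every IGF2BP3 OE library lay above every Apc-knockout library, with replicate 3 the lowest of its group. By mean level Clu ranked 7 among all genes of the table in Apc-knockout and 5 in IGF2BP3 OE libraries. Its log2 fold change was 0.72 (SE 0.10, 3 against 3 libraries), a 1.65-fold difference of the mean CPM. With IGF2BP3 OE replicate 1 left out the log2 fold change was 0.59.

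Connective tissue growth factor, the matricellular protein encoded by Ccn2 (ENSMUSG00000019997, plus strand of chromosome 10, 24595442 to 24598683), had the largest difference of the 8 in the fit to all libraries. It was counted at 648.9, 725.8 and 651.9 CPM in the Apc-knockout libraries and at 23.1, 296.9 and 287.1 CPM in the IGF2BP3 OE libraries. All 3 IGF2BP3 OE libraries were lower than every Apc-knockout library, and replicate 1 was far below the other 2. Relative to the Apc-knockout mean of 675.5 CPM, the level was 29.2-fold lower in replicate 1, 2.27-fold lower in replicate 2 and 2.35-fold lower in replicate 3. The value of replicate 1 rested on 57 counts (95% exact Poisson interval 43.2 to 73.8, counting error only), against 755 and 679 counts in replicates 2 and 3 and 1408 to 1547 counts in the Apc-knockout libraries. The log2 fold change was -1.74 (SE 0.53), and it was -1.27 without IGF2BP3 OE replicate 1, close to that of Gja1 (-1.28). The call was kept without replicate 1 but was lost with DESeq2's own test (-1.80) and in each of the 3 fits that left out an Apc-knockout library. Ccn2 overlaps 1 annotated gene on the opposite strand, and since the strand setting of the counting is not given, reads of the 2 cannot be told apart.

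Osteopontin, a secreted phosphoprotein that binds integrins and CD44, is encoded by Spp1 (ENSMUSG00000029304, plus strand of chromosome 5, 104435118 to 104441050). Spp1 was counted at 225.4, 242.5 and 266.8 CPM in the Apc-knockout libraries and at 121.1, 198.6 and 332.3 CPM in the IGF2BP3 OE libraries. The IGF2BP3 OE libraries lay on both sides of the Apc-knockout range: replicates 1 and 2 below it and replicate 3 above it. This gave a log2 fold change of -0.17 (SE 0.25), which turned to 0.06 without IGF2BP3 OE replicate 1. Without IGF2BP3 OE replicate 3 it was -0.61 and passed the threshold. Spp1 overlaps 1 gene model on its own strand, so its counts are uncertain.

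Interleukin 33, an alarmin stored in the nucleus of epithelial cells and released on damage, is encoded by Il33 (ENSMUSG00000024810, plus strand of chromosome 19, 29925114 to 29960718). It was the least abundant of the 8, at 14.8, 14.5 and 12.9 CPM in the Apc-knockout and 13.4, 14.2 and 12.3 CPM in the IGF2BP3 OE libraries. The groups overlapped, and each value rested on 28 to 36 counts, with a log2 fold change of -0.08 (SE 0.21). Its receptor Il1rl1, named here after its values were seen, had 1 count in 1 library and 0 in the others.

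Of the cell-surface proteins, Sca-1, a glycosylphosphatidylinositol-anchored Ly6 protein used to sort fetal-like intestinal cells, is encoded by Ly6a (ENSMUSG00000075602, minus strand of chromosome 15, 74994877 to 74998031). Ly6a was counted at 792.7, 859 and 758.8 CPM in the Apc-knockout libraries and at 1890, 1744 and 1487 CPM in the IGF2BP3 OE libraries. The groups were separated by a wide gap, and the IGF2BP3 OE libraries stood in the same order as for Clu. The log2 fold change was 1.09 (SE 0.11), a 2.12-fold difference of the mean CPM, and the largest rise among the 8. It was 0.95 without IGF2BP3 OE replicate 1.

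Ly6e (ENSMUSG00000022587, plus strand of chromosome 15, 74955051 to 74959905), a related anchored protein that is also interferon-inducible, was counted at 1115, 1071 and 1097 CPM in the Apc-knockout and 1725, 1627 and 1647 CPM in the IGF2BP3 OE libraries. It was the most even of the 8 within the IGF2BP3 OE group, where the highest library exceeded the lowest 1.06-fold, and its log2 fold change was 0.61 (SE 0.09).

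Ly6e ends 35 kb from Ly6a in the Ly6 gene cluster of chromosome 15. Of the other 9 tested genes within 250 kb of either gene, 2 (22.2%) passed the test, both higher, a share near the 29.2% of all genes. Both encode Ly6 proteins. These 9 genes were looked up by position after the values of the markers had been seen. Ly6d is also on the list of other fetal and regenerative genes given below. Ly6c1 (75044018 to 75048830) rose from 36.3 ± 3.66 to 113.4 ± 17.9 CPM (SD, n = 3), a log2 difference of 1.64 with SE 0.15 (edgeR adjusted p = 3.87e-05). Ly6d (74762056 to 74763620) rose from 568.5 ± 25.6 to 1035 ± 26.3 CPM (SD, n = 3), a log2 difference of 0.86 with SE 0.09 (edgeR adjusted p = 9.12e-05). The cluster members Lynx1 (0.32, edgeR adjusted p = 0.139), Psca (-0.47, edgeR adjusted p = 0.149) and Ly6g2 (-0.29, edgeR adjusted p = 0.373) did not pass, and Psca passed with a per-library offset for transcript GC content (-0.70, adjusted p = 0.045). Of 15 other Ly6 family genes listed, Ly6c1, Lynx1 and Psca had counts enough to be tested. Ly6g2, found by its position, is not on that list. Ly6a and Ly6c1 belong to a family of close paralogues that can share reads, so their counts are uncertain, although every count of the 8 markers was a whole number in a table where 3.1% of the values above 0 were fractional.

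Connexin 43, the gap junction subunit induced in fetal spheroids, is encoded by Gja1 (ENSMUSG00000050953, plus strand of chromosome 10, 56377330 to 56402513). Gja1 was counted at 53.5, 61.9 and 53.4 CPM in the Apc-knockout and 17.0, 25.9 and 21.98 CPM in the IGF2BP3 OE libraries. The highest IGF2BP3 OE library lay well under the lowest Apc-knockout library. The log2 fold change was -1.37 (SE 0.17), a 2.6-fold lower mean CPM, on 42 to 66 counts against 116 to 132 counts. It was -1.28 without IGF2BP3 OE replicate 1. Another connexin moved the other way: Gjb1 (connexin 32) rose from 39.2 ± 1.06 to 91.7 ± 13.2 CPM (SD, n = 3), a log2 difference of 1.22 with SE 0.14 (edgeR adjusted p = 0.000144). It was the 1 gene that passed among 3 other connexin genes tested (11 listed).

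Annexin A1, an intracellular calcium-dependent phospholipid-binding protein with anti-inflammatory and repair roles, is encoded by Anxa1 (ENSMUSG00000024659, minus strand of chromosome 19, 20373428 to 20390944). Anxa1 was counted at 127.2, 137.9 and 158.5 CPM in the Apc-knockout and at 31.6, 102.6 and 187.3 CPM in the IGF2BP3 OE libraries. As with Spp1, replicates 1 and 2 lay below and replicate 3 above every Apc-knockout library. The log2 fold change was -0.40 (SE 0.39). It was -0.02 without IGF2BP3 OE replicate 1, and -1.06 without replicate 3, where it passed the threshold, as it also did without a count filter. Anxa1 overlaps 1 gene on the opposite strand.

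The spread within the IGF2BP3 OE group set Ccn2, Anxa1 and Spp1 apart from the other markers. The highest IGF2BP3 OE library exceeded the lowest 12.9-fold for Ccn2, 5.93-fold for Anxa1 and 2.74-fold for Spp1, and 1.06-fold to 1.53-fold for the other 5. In the Apc-knockout group this ratio was 1.03-fold to 1.25-fold for all 8. Among the 5254 genes whose average log2 CPM was 5 or more, the range of log2 CPM within the IGF2BP3 OE group ranked 3 from the top for Ccn2, 17 for Anxa1 and 79 for Spp1. On log2(CPM + 0.5), IGF2BP3 OE replicate 1 was lower than the mean of replicates 2 and 3 by a difference of -3.63 for Ccn2, the lowest of all 5254 genes. The difference was -2.12 for Anxa1 (rank 24 from the lowest) and -1.08 for Spp1 (rank 120), against 0.25 for Clu and 0.23 for Ly6a. Replicate 1 was thus the lowest of its group for Ccn2, Anxa1, Spp1 and Gja1 and the highest for Clu, Ly6a and Ly6e. Over all genes tested, the median coefficient of variation of CPM, counting error included, was 10.5% in the Apc-knockout and 15.9% in the IGF2BP3 OE group. For the 8 markers the medians were 6.82% and 17.5%. The biological coefficient of variation, which leaves counting error out, was 3.14% in the Apc-knockout and 17.2% in the IGF2BP3 OE group. With limma-voom and a variance per group, 3201 genes passed, among them 5 of the markers, 3 higher and 2 lower. The part of this unequal spread in the calls lost without an Apc-knockout library was not tested.

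**Figure D2:**
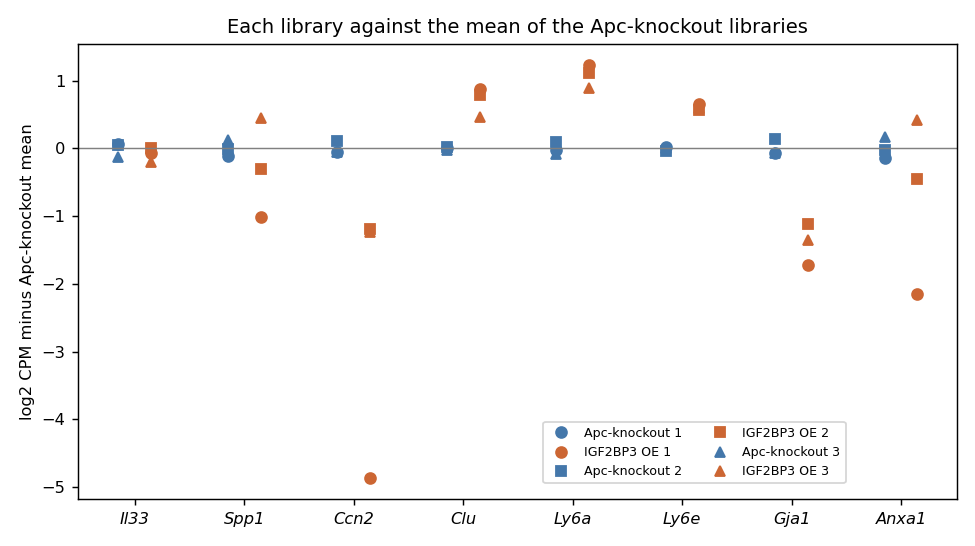
Log2 CPM of each library minus the mean log2 CPM of the Apc-knockout libraries (vertical axis) for each marker (horizontal axis); blue, Apc-knockout; orange, IGF2BP3 OE; circle, square and triangle mark replicates 1, 2 and 3. The blue points lie near 0, and the orange circle of Ccn2 lies at -4.87, far from the orange square and triangle at -1.18 and -1.23.

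Promoter sequence was examined for the markers with an entry in the RefSeq promoter table (build GRCm38.p6): Gja1, Anxa1, Il33 and Spp1. Each entry covers 250 bases before and 50 bases after a transcription start. These RefSeq starts can differ from the gene positions given above, as for Gja1 and Anxa1. Both strands were searched for 3 motifs. The first was GGAATG, the core bound by TEAD factors, found in 14.7% of the 32851 promoters of the table. The second was the AP-1 motif TGANTCA, found in 7.81% of them. The third was the TATA box motif TATAAA, found in 13.6% of them. The first start site of each is shown 5′ to 3′ in the direction of transcription, with matches in capitals. Clu, Ccn2, Ly6a and Ly6e had no entry, so their promoters were not searched.
Gja1, chr10:56377050-56377349, plus strand: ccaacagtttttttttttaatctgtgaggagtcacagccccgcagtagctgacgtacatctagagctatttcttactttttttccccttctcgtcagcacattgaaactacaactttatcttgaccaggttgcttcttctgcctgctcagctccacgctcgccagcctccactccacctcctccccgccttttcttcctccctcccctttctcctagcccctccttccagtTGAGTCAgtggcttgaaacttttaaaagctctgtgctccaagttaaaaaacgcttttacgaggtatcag
Anxa1, chr19:20390622-20390921, minus strand: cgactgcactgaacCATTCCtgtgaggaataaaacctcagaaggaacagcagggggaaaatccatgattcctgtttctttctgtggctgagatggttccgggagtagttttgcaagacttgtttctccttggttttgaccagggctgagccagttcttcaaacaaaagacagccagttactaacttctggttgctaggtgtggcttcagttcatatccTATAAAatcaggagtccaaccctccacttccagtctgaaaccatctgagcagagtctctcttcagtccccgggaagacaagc
Spp1, chr5:104434861-104435160, plus strand: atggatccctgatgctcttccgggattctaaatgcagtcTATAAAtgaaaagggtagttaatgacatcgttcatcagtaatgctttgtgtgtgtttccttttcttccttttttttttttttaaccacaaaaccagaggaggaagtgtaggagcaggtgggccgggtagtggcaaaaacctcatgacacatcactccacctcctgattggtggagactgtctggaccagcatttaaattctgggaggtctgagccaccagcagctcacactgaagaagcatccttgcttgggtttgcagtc
Il33, chr19:29924863-29925162, plus strand: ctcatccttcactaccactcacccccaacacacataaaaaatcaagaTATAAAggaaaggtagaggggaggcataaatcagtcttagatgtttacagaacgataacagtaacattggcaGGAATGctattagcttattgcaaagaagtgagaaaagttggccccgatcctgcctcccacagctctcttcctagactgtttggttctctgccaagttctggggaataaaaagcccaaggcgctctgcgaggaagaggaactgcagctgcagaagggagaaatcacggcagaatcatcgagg
The Gja1 window held an AP-1 match starting 19 bases before the start and no TEAD core. The Anxa1 window held a TEAD core 236 bases and a TATA box 32 bases before the start. This window lies wholly inside the Anxa1 span given above, which ends at 20390944 on the minus strand. The Spp1 window held a TATA box match 211 bases before the start, and the window of its second start site held no match. The Il33 window held a TEAD core 131 bases and a TATA box match 203 bases before the start, and the window of its second start site also held 1 of each. No matches overlapped. A match gives the letters present and does not show binding.

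The listed genes of the YAP and TEAD pathway were lower on balance in the IGF2BP3 OE libraries. This list, like the other gene lists here, was written with earlier results of these data known. Its share and median are therefore a description and were not tested as a set. Of 26 tested genes (27 listed), 12 fell, 1 rose and 13 did not pass the edgeR test, so that 50% were called against 29.2% of all genes, and the median log2 fold change was -0.37 against 0.04. Among the 15 coactivators, TEAD factors and Hippo regulators, 6 fell and 9 did not pass. Tead1, a DNA-binding partner of YAP, fell from 76.8 ± 4.92 to 37.7 ± 6.9 CPM (SD, n = 3), a log2 difference of -1.03 with SE 0.15 (edgeR adjusted p = 0.000517). Lats2, a kinase that inactivates YAP, changed by -0.79 (SE 0.19, edgeR adjusted p = 0.00753), and Mob1a, its activating cofactor, by -0.60 (SE 0.12, edgeR adjusted p = 0.00305). Those that fell thus held both activators and inhibitors of the pathway.

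Among 11 tested target genes, 6 fell, 1 rose and 4 did not pass. Ankrd1, a muscle-type ankyrin repeat protein and the most abundant of the list, was at 1371 ± 26.6 CPM in Apc-knockout and 1084 ± 126 CPM in IGF2BP3 OE libraries (SD, n = 3), a log2 difference of -0.34 with SE 0.10 (edgeR adjusted p = 0.0256). Its call was lost in 5 of 18 alternatives, among them the GC offset and each fit without 1 Apc-knockout library (adjusted p up to 0.111). Crim1 changed by -0.48 (SE 0.11, edgeR adjusted p = 0.00572) and Myof, a membrane repair protein, by -0.46 (SE 0.11, edgeR adjusted p = 0.00819). Ccn1, the closest relative of Ccn2 in the list, and Ajuba, the 1 gene that rose, were picked after their values were seen. Ccn1 was at 35.5, 37.1 and 30.9 CPM in the Apc-knockout and 11.3, 12.2 and 30.4 CPM in the IGF2BP3 OE libraries (log2 difference -0.95, SE 0.30, edgeR adjusted p = 0.0324). Its low libraries were replicates 1 and 2, and replicate 3 lay just under the Apc-knockout range. The call of Ccn1 was lost in each fit without 1 Apc-knockout library and without IGF2BP3 OE replicate 2 (adjusted p up to 0.109). Ajuba rose by 0.68 (SE 0.16, edgeR adjusted p = 0.00892), a call lost with the GC offset (0.43, adjusted p = 0.0677) and without Apc-knockout replicate 1. The number of genes of the list that passed was 15 without IGF2BP3 OE replicate 1, and it was 6, 8 and 7 without Apc-knockout replicates 1, 2 and 3. The number over all genes also fell without those replicates, from 3118 with all libraries to 1893, 1837 and 1748.

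**Figure D3:**
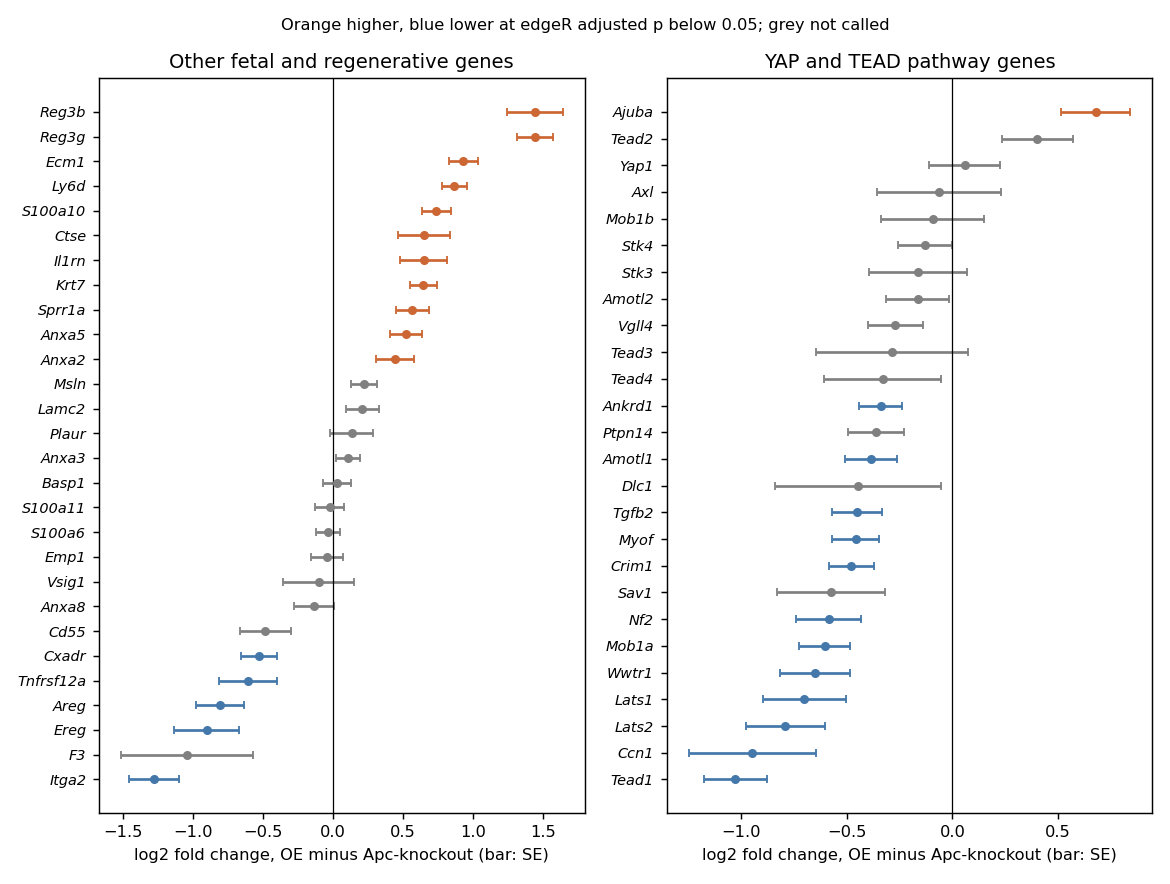
Log2 fold change (IGF2BP3 OE minus Apc-knockout, horizontal axis; bars give the SE) of each tested gene in 2 related lists. In the left panel 11 of 28 genes are higher and 5 lower; in the right panel 12 of 26 genes are lower and 1 is higher.

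The other genes of the fetal and regenerative programme, leaving out the 8 markers, were called in both directions. Their list too was written with earlier results of these data known, so its share is a description. Of 28 tested genes (30 listed), 11 rose, 5 fell and 12 did not pass, so 57.1% were called against 29.2% of all genes, and the median log2 fold change was 0.12 against 0.04. The antimicrobial lectin Reg3g rose from 103.5 ± 1.43 to 280.8 ± 42.2 CPM (SD, n = 3), a log2 difference of 1.44 with SE 0.13 (edgeR adjusted p = 2.5e-05). Its neighbour Reg3b rose by 1.44 (SE 0.20, edgeR adjusted p = 0.000361) and Ecm1, a secreted matrix protein, by 0.93 (SE 0.10, edgeR adjusted p = 0.00012). S100a6 (2990 ± 64.3 and 2915 ± 106 CPM, SD, n = 3) and S100a11 (1060 ± 94.9 and 1042 ± 84.9 CPM, SD, n = 3), calcium-binding proteins and the most abundant of the list, did not pass (edgeR adjusted p = 0.774 and 0.882).

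The 5 genes that fell, named after their values were seen, were Itga2, Ereg, Areg, Tnfrsf12a and Cxadr. Itga2, a collagen-binding integrin subunit, changed by -1.28 (SE 0.18, edgeR adjusted p = 0.00043). The epidermal growth factor receptor ligands Ereg and Areg changed by -0.90 (SE 0.23, edgeR adjusted p = 0.0119) and -0.81 (SE 0.17, edgeR adjusted p = 0.00448). Tnfrsf12a, the receptor of the cytokine TWEAK, changed by -0.61 (edgeR adjusted p = 0.041) and Cxadr, a junction protein, by -0.53 (edgeR adjusted p = 0.00909). Of these 5 calls, that of Tnfrsf12a was absent from 6 of 18 alternatives (highest adjusted p 0.12), among them DESeq2's test and each fit without 1 Apc-knockout library. Those of Ereg and Cxadr were lost in 3 alternatives each, with the GC offset, with the block plus GC offset, and without Apc-knockout replicate 1 for Ereg and replicate 3 for Cxadr. Without IGF2BP3 OE replicate 1, 10 genes of the list were higher and 4 lower.

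The genes of homeostatic crypt stem cells were called at a share near that of all genes. Of 13 tested genes (18 listed), 3 rose and none fell (edgeR; 3 and 0 also at an unadjusted p below 0.05 and with DESeq2), which is 23.1% against 29.2% of all genes. Prom1, a surface glycoprotein of crypt base cells, rose from 716.4 ± 24.5 to 1129 ± 131 CPM (SD, n = 3), a log2 difference of 0.66 with SE 0.10 (edgeR adjusted p = 0.000751). Ephb3, a receptor that positions cells in the crypt, rose by 0.73 (SE 0.18, edgeR adjusted p = 0.00852), a call lost without Apc-knockout replicate 3 (adjusted p = 0.0556) and without IGF2BP3 OE replicate 2 (adjusted p = 0.0528). Ascl2, a WNT-induced stem cell factor, rose by 1.52 (SE 0.47, edgeR adjusted p = 0.0292) on 1 to 33 counts, a call lost without IGF2BP3 OE replicate 1 and in 4 other alternatives (adjusted p up to 0.089). Cdk6, also abundant, did not pass (0.23, edgeR adjusted p = 0.161), but passed with the GC offset (0.38, adjusted p = 0.0478), with the block plus GC offset and without IGF2BP3 OE replicate 2. With the replicate block and GC offset together, 5 genes of the list rose.

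Receptors and binding partners of the markers were called in 5 of 10 tested genes (16 listed), 4 lower and 1 higher, which is 50% against 29.2% of all genes. As with the other lists, earlier results were known when it was written, so the share is a description. Tjp1, the junction scaffold ZO-1 that binds connexin 43, also fell, from 112.6 ± 2.61 to 63.7 ± 7.65 CPM (SD, n = 3), a log2 difference of -0.82 with SE 0.12 (edgeR adjusted p = 0.000623). Lrp6, a WNT coreceptor that binds connective tissue growth factor, changed by -0.73 (SE 0.17, edgeR adjusted p = 0.00791), and Lrp1, an endocytic receptor, by -0.63 (SE 0.15, edgeR adjusted p = 0.00909). Itgb1, an integrin subunit, changed by -0.47 (SE 0.10, edgeR adjusted p = 0.0059). Itgb5, named after its values were seen, rose by 0.62 (SE 0.20, edgeR adjusted p = 0.0342), but 9 of 18 alternatives did not call it (highest adjusted p 0.19), among them DESeq2's test, the GC offset and each fit without 1 Apc-knockout library. Cd44, a receptor of osteopontin, was at 939 ± 43 and 1094 ± 96.5 CPM (SD, n = 3) and did not pass (0.22, edgeR adjusted p = 0.108), but passed with the GC offset (0.38, adjusted p = 0.0171), with the block plus GC offset and without IGF2BP3 OE replicate 1. The call of Itgb1 was lost with the GC offset and that of Lrp1 without Apc-knockout replicate 3, when 3 genes of the list passed, and 4 passed in 8 other alternatives.

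Fold changes followed the GC content of the transcript over 10268 protein-coding genes (Spearman rho 0.37; genes are not replicates of each other). GC content was taken over the whole longest transcript. Counts came from the 3′ end, so neither this relation nor the GC offset measures the GC content of the sequenced part. The median log2 fold change was -0.21 in the genes with a GC content of up to 44.9% and 0.29 in those above 54.5%, the lowest and highest of 4 equal groups. The longest transcripts of Clu (55.6%) and Ly6e (55.4%) fell in the highest group. Those of Gja1 (42.2%), Anxa1 (43.6%), Spp1 (43.3%) and Il33 (42.5%) fell in the lowest, and Ccn2 (49.2%) and Ly6a (48.1%) lay between. With a per-library offset for GC content, the log2 fold change was 0.51 for Clu, 0.40 for Ly6e, 1.14 for Ly6a, -1.17 for Gja1 and -1.76 for Ccn2, and these 5 still passed. It was 0.12 for Il33, -0.01 for Spp1 and -0.25 for Anxa1. The median of the YAP and TEAD list with this offset was -0.46.

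**Figure D4:**
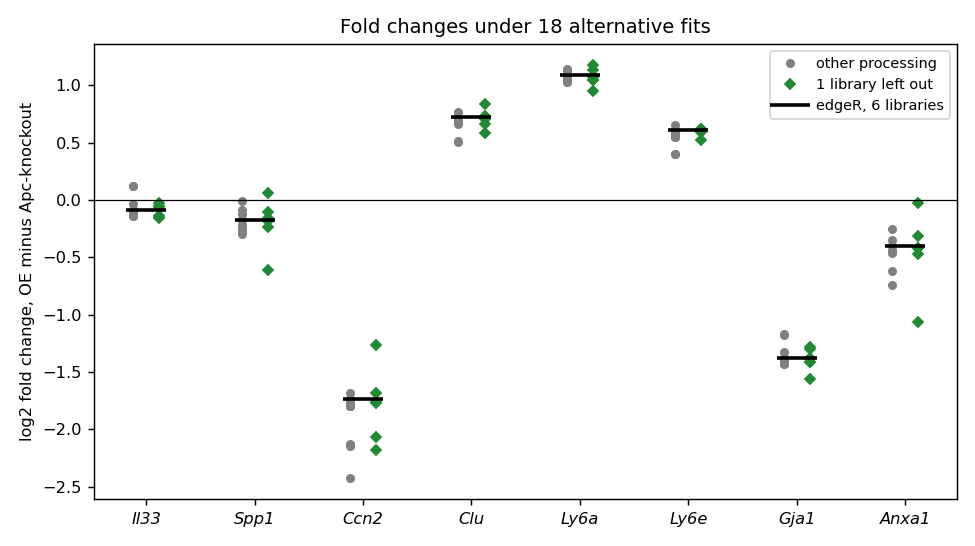
Log2 fold change of each marker (vertical axis) in the edgeR fit to all libraries (black bar) and in 18 alternative fits, of which 6 leave out 1 library (green) and the others change the processing (grey). Clu, Ly6a, Ly6e, Gja1 and Ccn2 lie on 1 side of 0 in every fit, whereas Spp1 and Il33 cross 0 and Anxa1 runs from -1.06 to -0.02.

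The genes whose pattern over the 6 libraries lay closest to that of Clu were Atp5k and Ccdc97, of 5109 protein-coding genes whose average log2 CPM was 5 or more. The measure was the root mean square difference in log2 CPM centred on the Apc-knockout mean, which was 0.02 for Atp5k and 0.04 for Ccdc97. Closest to Gja1 were Tob1 (0.12), Gdf15 (0.12) and Alkbh5 (0.13). Tob1 was at 87.2 and 34.0 CPM, Gdf15 at 199.5 and 85.3 CPM and Alkbh5 at 181.8 and 75.2 CPM (means of 3 Apc-knockout and 3 IGF2BP3 OE libraries). With 2 groups of 3 libraries, this measure mainly reflects a like difference between the groups.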

How the data were processed

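The deposited table holds estimated counts for each gene and library, not normalized by the authors, with 2843 fractional values. STAR and HTSeq and the builds mm10 and GRCm38 are named in the submitters' processing notes, without their roles; the annotation, strand setting and treatment of multi-mapping reads and molecular identifiers are not given in the sources used here. The library kit was QuantSeq 3′ forward, per the labels' protocols. Columns were matched to samples by library name and groups were taken from sample titles. Since the planned test needs whole counts, values were rounded. Genes were kept by filterByExpr, scaled by TMM and tested with edgeR 4.0.16 in R 4.3.3 (quasi-likelihood, no covariates). Standard errors are the log2 fold change divided by the square root of F. On simulated counts the fit was tested before use. Alternatives used DESeq2 1.42.0 and limma 3.58.1, other scalings and filters, and the replicate number as a block. Others used a GC offset (loess, span 0.5, longest GENCODE M21 transcript), removed the mitochondrial genes or left out each library. Added after seeing the data were unrounded counts and removal of mitochondrial genes with CT010467.1. The markers and gene lists were chosen with earlier results of these data known. Named genes were the markers and, per list, the 4 with the smallest p and the 2 most abundant; exceptions are stated. One further marker and some genes met by these rules are not reported here. Intervals and floors (3 counts, 1.18 to 1.41 CPM) cover counting error only.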

Additional observations from a re-analysis of the deposited data

How the results depend on the processing

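Over the 8 markers, 144 values came from alternatives: 134 had the same direction and call, 4 lost the call, 3 gained one and 3 changed sign; Clu, Ly6a, Ly6e and Gja1 kept both in all 18 alternatives. The sign changed for Il33, to 0.12 under the GC offset and also under the block plus GC offset, and for Spp1, to 0.057 without IGF2BP3 OE replicate 1 (lowest leave-one-out value -0.61). With library totals S100a6 was 0.012 and S100a11 0.024. Fits that each omitted 1 library put S100a11 between -0.11 and 0.045. Of all genes, 3118 passed, and 1748 to 3532 in fits that each omitted 1 library, the 3 lowest being the fits without an Apc-knockout library. Leaving out single libraries gave 6 to 15 calls in the YAP and TEAD list, 3 to 6 among receptors and partners and 1 to 2 among other connexins. Other connexins gave 2 with library totals, other Ly6 genes 2 with the GC offset, and crypt stem cell genes 5 with the replicate block and GC offset. The replicate block alone gave 3112 genes and the same 5 marker calls by count, with -2.13 for Ccn2; equal numbers share no stated culture, and their deviations correlated at 0.10, 0.02 and 0.07. For counts under about 30, as for Ascl2, depth limits precision.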
